A study of Mus musculus with 15 samples.

Results

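The genes described here are 10 immediate-early genes, Fos, Fosb, Jun, Junb, Egr1, Egr2, Egr3, Atf3, Ier2 and Klf4, out of 18929 mouse genes measured in skin. They were taken by gene symbol, and all 10 were found and were among the 15369 genes that passed the filter on low counts. The list was chosen by measured values, since Fos and Klf4 stood lower in HDB skin than in acellular skin of the 10 mm wound. Values of the 10 mm groups are therefore given as a description with no test, and tests are given only for the 15 mm wounds and normal skin, which the choice did not use.

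Polyadenylated RNA was sequenced from 15 skin samples in 5 groups of 3. The mice were wild-type male balb/c, 4 to 6 weeks old when round full-thickness wounds of 10 mm or 15 mm were cut in the dorsal skin. Acellular wounds were filled with Matrigel beads without cells. HDB wounds received Matrigel beads laden at high density with human umbilical cord mesenchymal stem cells (MSCs), 56 at 10 mm and 120 at 15 mm, mixed with 4 times as many acellular beads. The remaining group was normal skin. Skin for sequencing was taken after 4 weeks of implantation, although the wound experiment itself is described as ending on day 21. The graft was human and the host mouse, and the table lists mouse genes only, so what the grafted cells themselves expressed was not analysed here. The labels do not say that the samples of a group came from separate mice, so the p-values measure the spread between these samples only. Total counts per sample lay between 15840551 and 18404188. Basal keratinocyte, suprabasal keratinocyte and dermal fibroblast markers were present in every group, with 0 of these genes at 0.

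Immediate-early genes are transcribed within minutes of a stimulus, without new protein synthesis, and their mRNAs are short-lived. Growth factors, cytokines, stretch and injury switch them on through MAP kinases, which act on serum response factor and its ETS partners at CArG boxes and on CREB-family proteins at the cyclic AMP response element (CRE). Fos and Jun family proteins pair to form AP-1, a dimer that binds its own site in many wound and matrix genes. Egr1, Egr2 and Egr3 are zinc finger factors that bind GC-rich sites, Atf3 is a stress-induced relative of the AP-1 proteins, Ier2 is a small nuclear protein induced together with them, and Klf4 is a zinc finger factor of the differentiating epidermis and its barrier.

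The stretch before the start site is shown for Fos, whose level led to the choice of the list, for Junb, which was called against normal skin in both 15 mm groups, and for Klf4, the only member lower in wounds than in normal skin in a test. RefSeq promoter windows on GRCm38.p6 were found for 7 of the 10 genes (Fos, Fosb, Jun, Junb, Egr2, Atf3 and Klf4), and the 250 bases before each start were searched on both strands. Egr2 has 5 windows, partly overlapping, and each of the other 6 genes has 1, which makes 11 windows in all. Each sequence reads 5′ to 3′ on the strand of the gene. Capitals mark the CRE core (TGACG), the TATA box (TATAAA) and the EGR site (GCGNGGGCG), each on either strand. Fos lies on chromosome 12 (85473890 to 85477274, plus strand, 4 exons), Junb on chromosome 8 (84976909 to 84978748, minus strand, 1 exon) and Klf4 on chromosome 4 (55527137 to 55532475, minus strand, 5 exons).
Fos, chr12:85473640-85473889: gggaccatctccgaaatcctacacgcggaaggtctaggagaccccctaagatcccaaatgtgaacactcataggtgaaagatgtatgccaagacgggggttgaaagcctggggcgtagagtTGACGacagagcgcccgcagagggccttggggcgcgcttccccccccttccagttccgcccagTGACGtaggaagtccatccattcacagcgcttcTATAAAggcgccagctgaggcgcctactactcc
Junb, chr8:84978749-84978998: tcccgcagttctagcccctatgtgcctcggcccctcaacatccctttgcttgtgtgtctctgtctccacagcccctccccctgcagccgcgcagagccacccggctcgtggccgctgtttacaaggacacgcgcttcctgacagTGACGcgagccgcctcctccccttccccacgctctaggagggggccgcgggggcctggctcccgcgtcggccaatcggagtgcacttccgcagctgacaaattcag
Klf4, chr4:55532476-55532725: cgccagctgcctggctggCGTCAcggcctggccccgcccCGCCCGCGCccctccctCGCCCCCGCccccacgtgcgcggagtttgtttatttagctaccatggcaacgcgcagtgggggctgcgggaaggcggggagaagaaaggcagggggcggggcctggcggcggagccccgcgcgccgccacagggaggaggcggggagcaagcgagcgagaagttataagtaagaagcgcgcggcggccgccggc

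The CRE core was present before 6 of the 7 genes (Fos, Fosb, Junb, Egr2, Atf3 and Klf4), beside 19.8% of all 27025 genes with a window. By window it was in 8 of the 11, 3 of them overlapping windows of Egr2, beside 17.8% of all 32851 windows. In Fos it began 129 and 66 bases before the start, followed by a TATA box at 33 bases. In Junb it lay at 106 bases and in Klf4 at 232 bases. The EGR site was found in Fosb and Klf4, against 5.33% of all genes, and both matches in Klf4 (211 and 194 bases before the start) overlapped matches to the GC box, GGGCGG. The GC box itself was before 6 of the 7 genes, all but Junb, and 35.4% of all genes, and in 7 of the 11 windows against 32.7% of all. A TATA box was found in Fos alone among the 7, against 14.3% of all genes, and a CArG box in Egr2 alone, in 4 of its 5 windows, against 1.62%. The AP-1 site TGANTCA was in 0 of the 11 windows and before 7.82% of all genes, so these letters are not in the stretch searched. These matches describe the sequence and do not show that a factor was bound. Each absence, such as that of a CArG box in Fos, holds only for the stretch searched. Bases farther from the start were not searched, nor were Egr1, Egr3 and Ier2, which had no window.

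On the same build, Fosb lies on chromosome 7 (19302696 to 19310118), Jun on chromosome 4 (95049036 to 95052222), Atf3 on chromosome 1 (191170296 to 191183333), Egr1 on chromosome 18 (34861207 to 34864956), Egr2 on chromosome 10 (67534469 to 67542188), Egr3 on chromosome 14 (70077317 to 70082613) and Ier2 on chromosome 8 (84661331 to 84662852). Jun, Junb and Ier2 have 1 exon. The members did not start from equal levels. Levels are given as CPM, the TMM-normalized count scaled to the library total, and they were compared between genes only per kilobase of the longest annotated transcript. In normal skin the mean level per kilobase was highest for Klf4 (68.3 CPM per kb) and Jun (48.9), intermediate for Junb (31.8), Ier2 (19.9), Egr3 (17.8), Egr1 (17.5), Egr2 (15.2), Atf3 (11.5) and Fos (9.09), and lowest for Fosb (0.986). In acellular 10 mm skin the order began with Fos (191 CPM per kb), Junb (134) and Egr1 (110) and ended with Egr3 (36.8) and Fosb (33.7). The place of Fos at the top rested on replicate 3. In replicates 1 and 2 Junb was higher (129 and 112 CPM per kb) than Fos (117 and 88.3), and without replicate 3 the means were 120.5 for Junb and 103 for Fos. Without that sample Klf4 (78.4) came before Egr1 (72.1), and the lowest were Egr3 (27.9), Atf3 (19.5, from 55.9 with it) and Fosb (9.89). Jun and Klf4, the most abundant per kilobase in normal skin, stood at 64.3 and 85.6 CPM per kb there, 1.31 and 1.25 times their normal levels.

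Fos, the DNA-binding partner of Jun in AP-1, ranged from 12 to 775 CPM. It was measured at 248, 186 and 775 CPM in the acellular 10 mm samples and at 27.7, 33.2 and 24.7 CPM in the HDB 10 mm samples. At 15 mm it stood at 13.5, 61.4 and 53.7 CPM in acellular and at 58.5, 28.7 and 105 CPM in HDB skin, and in normal skin at 24.3, 21.2 and 12 CPM. The 3 acellular 10 mm samples lay above all 12 others. HDB 10 mm skin overlapped with both 15 mm groups and stood above normal skin without overlap, its lowest sample at 24.7 and the highest normal sample at 24.3 CPM. Fosb, a close relative that pairs with the same Jun proteins, was low in most samples, at 2.81 to 4.22 CPM in normal skin, 2.78 to 8.07 in HDB 10 mm, 2.10 to 13.1 in acellular 15 mm and 5.46 to 10.3 CPM in HDB 15 mm skin. In acellular 10 mm skin it reached 31.6, 43.2 and 307 CPM, again above every other sample.

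**Figure D1:**
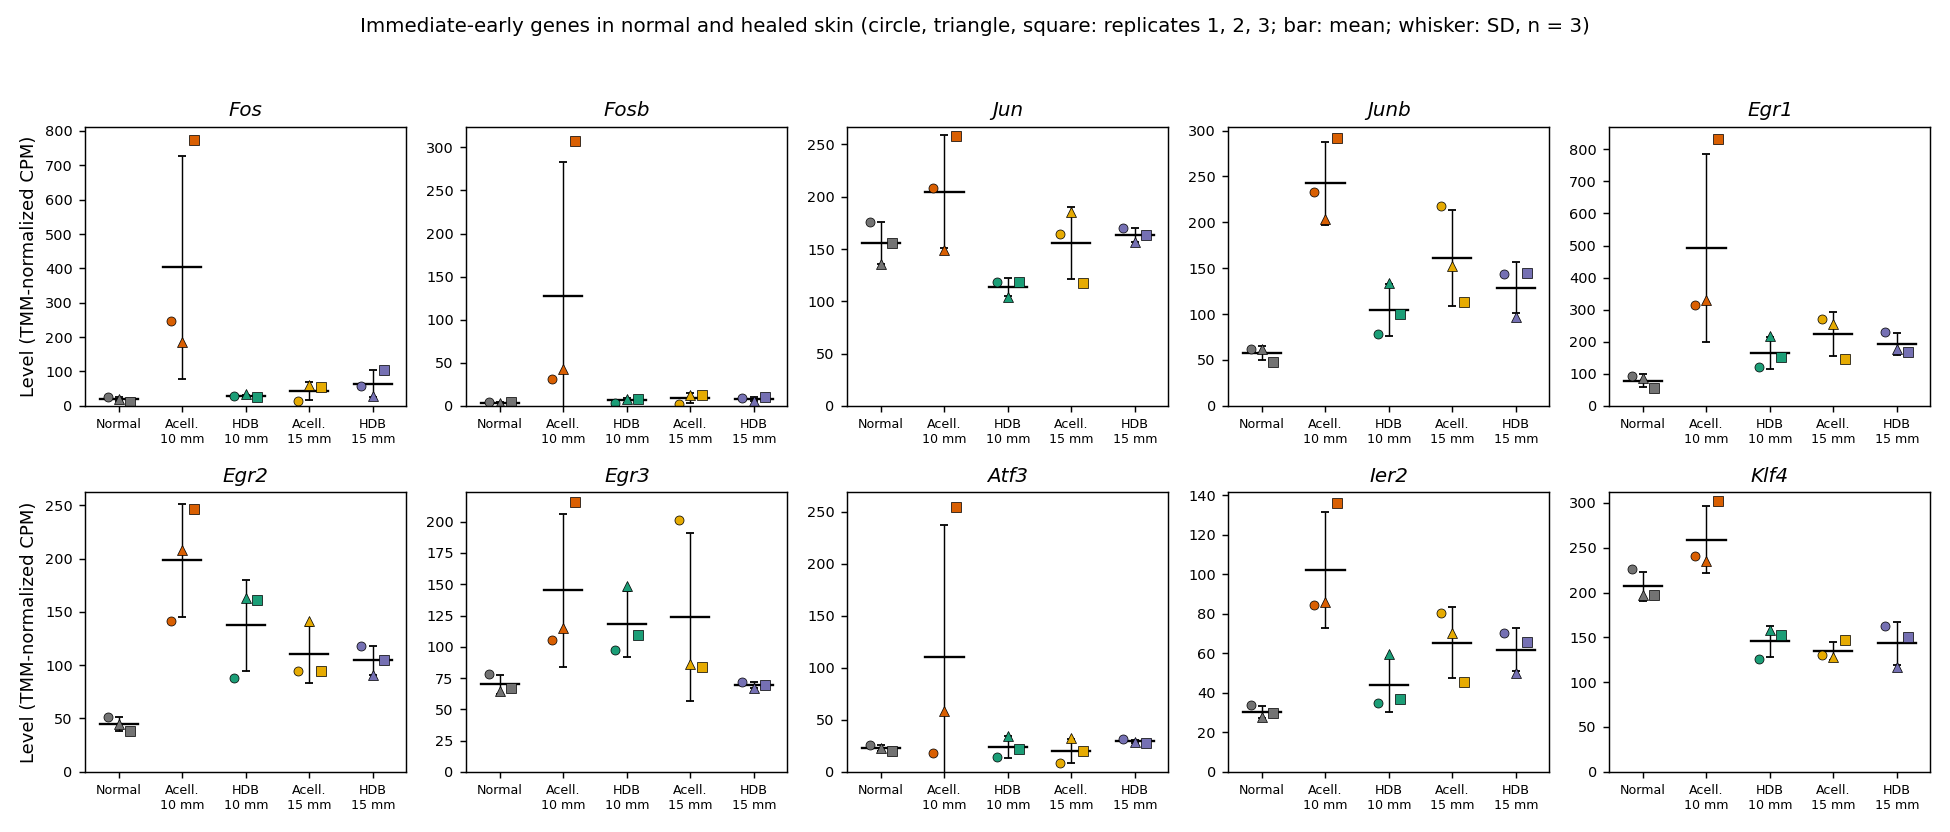
Level of each of the 10 genes (TMM-normalized CPM, linear axis from 0) in the 5 groups; circles, triangles and squares are replicates 1, 2 and 3, the bar is the mean and the whisker the SD (n = 3), which for Fosb and Atf3 in acellular 10 mm skin runs past the bottom of the axis. Replicate 3 of the acellular 10 mm group is the highest point for every gene, and the 3 points of that group lie above all others for Fos, Fosb, Egr1, Ier2 and Klf4.

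Jun, the main partner of Fos, varied least among the AP-1 members. Its level was 208, 149 and 258 CPM in acellular 10 mm, 119, 104 and 118 CPM in HDB 10 mm, 164, 185 and 118 CPM in acellular 15 mm, 170.3, 156 and 163 CPM in HDB 15 mm and 176, 136 and 156 CPM in normal skin. HDB 10 mm skin was lowest, and its 3 samples lay below those of acellular 10 mm, HDB 15 mm and normal skin, whereas the other 4 groups overlapped. Junb, which can take the place of Jun in AP-1, followed another order. It stood at 232, 203 and 292 CPM in acellular 10 mm, 78.2, 134 and 100.1 CPM in HDB 10 mm, 218, 153 and 114 CPM in acellular 15 mm, 144, 97.2 and 145 CPM in HDB 15 mm and 62.2, 62.1 and 48.2 CPM in normal skin. Every wound sample was above every normal sample, and neighbouring wound groups in this order overlapped. Atf3 was high in a single library. It was measured at 18.4, 58.9 and 255 CPM in acellular 10 mm skin and between 8.79 and 34.7 CPM in the other 12 samples, with normal skin at 20.0 to 25.4 CPM, so that all neighbouring groups overlapped.

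Among the Egr factors, Egr1 was highest in acellular 10 mm skin (316, 331 and 832 CPM), above all other samples. It stood at 121, 219 and 154 CPM in HDB 10 mm, 269.5, 255 and 145 CPM in acellular 15 mm, 230.5, 179 and 168 CPM in HDB 15 mm and 94.3, 86.1 and 54.7 CPM in normal skin. Egr2 stood at 141, 208 and 246 CPM in acellular 10 mm, 88.1, 163 and 161 CPM in HDB 10 mm, 94.3, 141 and 94.8 CPM in acellular 15 mm, 118, 90.8 and 105 CPM in HDB 15 mm and 51.7, 44.6 and 38.6 CPM in normal skin. For both genes the 12 wound samples lay above the 3 normal samples, and the wound groups other than acellular 10 mm overlapped with each other. Egr3 differed from them in HDB 15 mm skin, where it lay at 71.7, 67.2 and 69.1 CPM, within the range of normal skin (64.4 to 78.4 CPM). The other groups were higher, with 105, 115 and 215 CPM in acellular 10 mm, 97.5, 148 and 109 CPM in HDB 10 mm and 202, 86.3 and 84.1 CPM in acellular 15 mm skin.

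Ier2 followed the order of Egr1, with 84.4, 85.9 and 136 CPM in acellular 10 mm, 35.0, 59.8 and 36.8 CPM in HDB 10 mm, 80.4, 70.1 and 45.7 CPM in acellular 15 mm, 70.3, 49.8 and 65.6 CPM in HDB 15 mm and 33.7, 27.8 and 29.5 CPM in normal skin. All wound samples were above all normal samples. Klf4 had a pattern of its own. It was measured at 240.3, 235 and 302 CPM in acellular 10 mm skin and at 226, 197 and 197 CPM in normal skin, and these groups did not overlap. In the other wounds it was lower than in normal skin, at 126, 158 and 153 CPM in HDB 10 mm, 130.4, 128 and 147 CPM in acellular 15 mm and 162, 116 and 151 CPM in HDB 15 mm skin, and these 3 groups overlapped with each other.

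In the 10 mm wounds, the contrast that led to the choice of the list, the fit placed all 10 members lower in HDB skin, beside 51.8% of all genes tested. The log2 fold change was largest for Fosb (-4.34, standard error (SE) 0.908) and Fos (-3.82, SE 0.694), followed by Atf3 (-2.21), Egr1 (-1.58), Junb (-1.22), Ier2 (-1.22), Jun (-0.85), Klf4 (-0.83), Egr2 (-0.53) and Egr3 (-0.29). On the linear scale the mean of Fos was 14.1-fold lower, at 28.5 ± 4.33 against 403 ± 324 CPM, and that of Klf4 1.78-fold lower, at 146 ± 17.4 against 259 ± 37.5 CPM (SD, n = 3 each). The median of the 10 was -1.22, beside -0.01 over all genes tested. For 7 members (all but Egr2, Egr3 and Atf3) the 3 HDB samples lay below the 3 acellular samples, beside 6.47% of all genes tested. The rule used this contrast, so nothing is read from these counts. In whole tissue, fewer cells of a type and less RNA per cell cannot be told apart.

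The size of this difference rested in part on replicate 3 of acellular 10 mm skin, which was the highest of all 15 samples for 10 of the 10 members, as it was for 1.67% of all genes tested. Without it the median over the members was -0.83, 9 of 10 remained lower in HDB skin, and the same 7 were lower without overlap. The log2 fold change was then -2.93 for Fos, -2.57 for Fosb and -0.69 for Atf3, and for Egr3 it turned to 0.10. Acellular 10 mm skin without that sample still held 11.3 times the normal level of Fos and 10.0 times that of Fosb, but 1.69 times that of Atf3. The total count of replicate 3 (17064008) was close to those of replicates 1 and 2 (17597931 and 17375757).

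Against normal skin, acellular 10 mm skin was higher for all 10 members, with a median log2 fold change of 2.11. It was 5.09 for Fosb, 4.39 for Fos, 2.65 for Egr1, 2.28 for Atf3, 2.14 for Egr2, 2.08 for Junb, 1.75 for Ier2, 1.05 for Egr3, 0.39 for Jun and 0.32 for Klf4. For 8 members (all but Jun and Atf3) the groups did not overlap, beside 29.1% of all genes tested that were higher without overlap. In HDB 10 mm skin the same comparison gave a median of 0.66, with Egr2 (1.61) and Egr1 (1.07) the largest and with Jun (-0.45) and Klf4 (-0.51) lower than normal. There 6 members were higher without overlap (25.7% of all genes) and 2, Jun and Klf4, lower (23.4%). These comparisons share the normal samples and are given side by side. For 5 members (Fos, Fosb, Egr1, Ier2 and Klf4) every acellular 10 mm sample was above all 12 other samples, a pattern found for 0.234% of all genes tested. Acellular skin of the 15 mm wound was lower than that of the 10 mm wound for all 10 members (median log2 fold change -0.90), with -3.79 for Fosb and -3.23 for Fos, and 6 of them without overlap beside 8.09% of all genes. The size rested in part on acellular 10 mm replicate 3. Without it the 10 mm mean fell from 127 to 37.4 CPM for Fosb and from 403 to 217 CPM for Fos. The 15 mm means were 9.21 and 42.9 CPM. HDB skin of the 15 mm wound was higher than that of the 10 mm wound for 7 members and lower for 3, with a median of 0.30. The choice of the list used the values of both 10 mm groups, so nothing is read from any count in this paragraph.

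**Figure D2:**
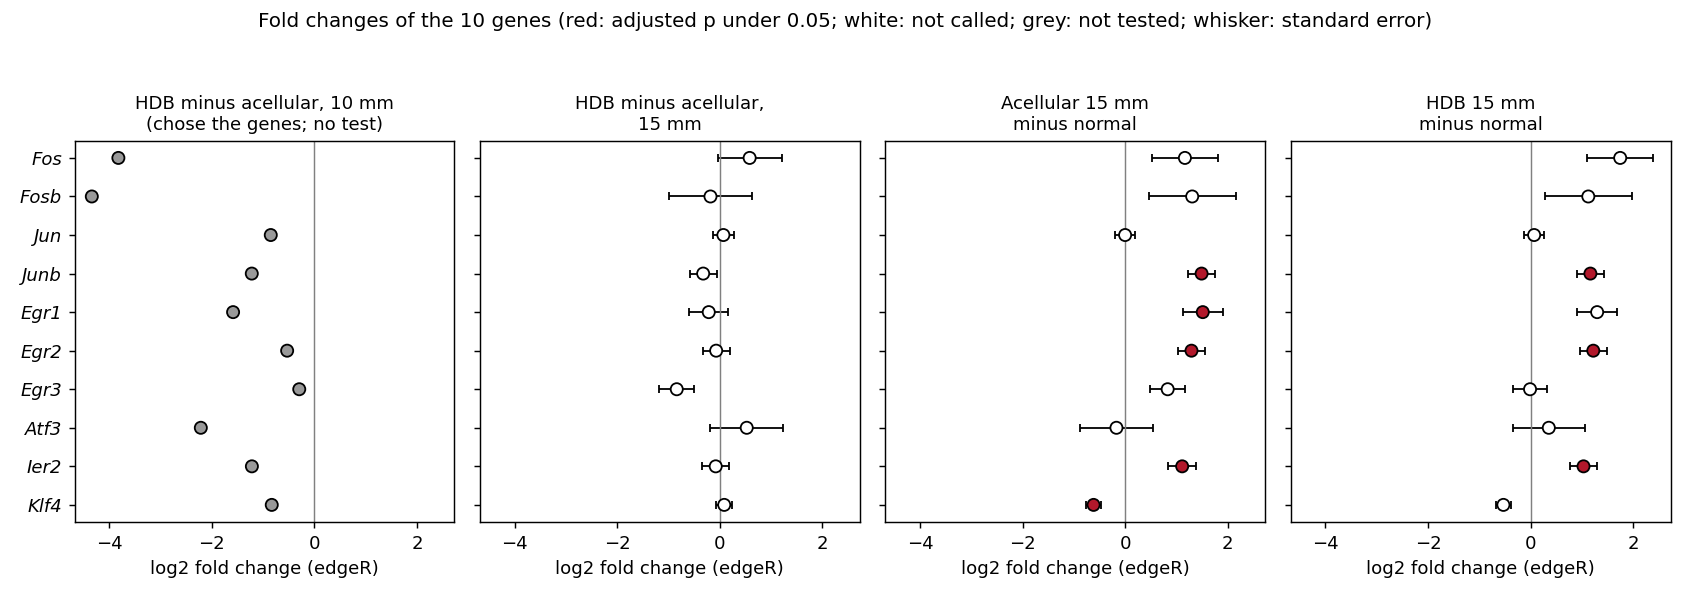
Log2 fold change of each of the 10 genes from the edgeR fit in 4 comparisons, with whiskers of 1 standard error where a test was made; grey points belong to the contrast that chose the genes and carry no test, red points passed an adjusted p of 0.05 and white points did not. All 10 genes are below 0 in the 10 mm contrast, none is red at 15 mm, 5 are red in acellular 15 mm and 3 in HDB 15 mm skin against normal skin.

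The 15 mm wounds asked whether HDB and acellular skin also differed in the larger defect, in samples the choice of genes had not used. No member was called there. Of the 10 members 0 passed an adjusted p of 0.05 in edgeR (quasi-likelihood, Benjamini-Hochberg over all genes), beside 2.93% of all genes tested, and DESeq2 called 0 as well. At an unadjusted p under 0.05 there was 1, Egr3. It was lower in HDB skin by a log2 fold change of -0.84 (SE 0.338, edgeR adjusted p = 0.166) at 69.3 ± 2.24 against 124 ± 67.3 CPM (SD, n = 3 each), and it was the only member whose groups did not overlap, beside 11.7% of all genes lower without overlap. Its acellular mean was raised by replicate 1 at 202 CPM, the others standing at 86.3 and 84.1 CPM. Fos, the gene with the second largest difference at 10 mm, had a log2 fold change of 0.58 (SE 0.624, edgeR adjusted p = 0.603), with HDB 15 mm skin at 64.2 ± 38.7 and acellular 15 mm skin at 42.9 ± 25.7 CPM. Klf4 had 0.09 (SE 0.151, adjusted p = 0.760 by the same edgeR test). The remaining members lay between -0.32 (Junb, SE 0.262) and 0.52 (Atf3, SE 0.707), with adjusted p from 0.476 to 0.912 in that edgeR fit. The median over the 10 was -0.08, beside 0.00 over all genes tested. Standard errors of 0.6 to 0.8 for Fos, Atf3 and Fosb leave room for changes of that size in either direction. They carry the spread of all 15 samples, the 10 mm ones included. For Atf3 the SD of log2 CPM was 1.90 in acellular 10 mm, 0.938 in acellular 15 mm and 0.080 in HDB 15 mm skin. Same-number samples of the 2 groups deviated in the same sense, as some samples of other groups did. A block on the replicate number over all 15 samples left 0 members called. The fall of these genes in HDB skin was tested at 15 mm only, and whether the effect differed between wound sizes was not tested, since the 10 mm contrast had chosen the genes.

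Acellular 15 mm skin was compared with normal skin, which asked which members stayed raised in the larger wound without MSCs. Junb, Egr1, Egr2 and Ier2 were higher and Klf4 was lower. These 5 of 10 members stood beside 30.2% of all genes tested, the 4 higher beside 17.6% and the 1 lower beside 12.6%. Junb rose by a log2 fold change of 1.49 (SE 0.267, edgeR adjusted p = 0.00449), from 57.5 ± 8.10 to 161 ± 52.5 CPM (SD, n = 3 each). Egr1 rose by 1.51 (SE 0.391, edgeR adjusted p = 0.0152), from 78.4 ± 20.9 to 223 ± 68.0 CPM. Egr2 rose by 1.29 (SE 0.266, edgeR adjusted p = 0.00663), and Ier2 by 1.11 (SE 0.268, edgeR adjusted p = 0.0117). For these 4 genes each wound sample of any group was above each normal sample, beside 9.86% of all genes tested. Between acellular 15 mm and normal skin alone 5 members were higher without overlap, the fifth being Egr3, beside 22.5% of all genes, and 1, Klf4, was lower, beside 21.5%. Klf4 fell by 0.62 on the log2 scale (SE 0.151, edgeR adjusted p = 0.0123), from 207 ± 16.5 to 135 ± 10.4 CPM. The AP-1 members Fos (1.16, SE 0.636, edgeR adjusted p = 0.177) and Fosb (1.3, SE 0.849, edgeR adjusted p = 0.254) had fold changes of like size and were not called. Both had 1 acellular sample, replicate 1, within or below the normal range. Egr3 had 0.83 (SE 0.339, edgeR adjusted p = 0.0802), Jun 0.00 and Atf3 -0.17.

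Junb, Egr2 and Ier2 were called in all 16 fits tried, the main one included, with adjusted p from 9.6e-07 to 0.0471 for Junb. Egr1 was called in 15 and lost without normal replicate 3 (edgeR adjusted p = 0.0637). Klf4 was called in 14 and lost without normal replicate 1 (edgeR adjusted p = 0.0541) and when only the compared groups were fitted (0.0590), and it is below the minimum absolute log2 fold change of 1 used as another call rule. Egr3 was called in 3, namely by DESeq2 (adjusted p = 0.0393) and in edgeR without acellular 15 mm replicate 2 (0.0476) or 3 (0.0355). Among the suprabasal keratinocyte markers, the differentiated cells in which Klf4 acts, 4 of 9 were called lower in acellular 15 mm than in normal skin (Krt10, Krtdap, Sbsn and Lor) and 0 higher. Their summed level was 1482 to 3186 CPM against 4617 to 5753 CPM, and Lor, a cornified envelope protein, stood at 107 ± 88.2 against 445 ± 35.9 CPM. The call of Lor held in 5 of 15 alternatives, and the count of called suprabasal markers ran from 0 to 5. The basal marker Trp63, an epidermal lineage factor, was called higher (0.92, SE 0.225, edgeR adjusted p = 0.0122), 1 of 5 basal markers. Markers of other cells are given for the same comparison, in which 17.6% of all genes were called higher, 12.6% lower and 21.5% lower without overlap. The 6 endothelial markers were all called lower (median -1.48, 4 to 6 over the alternatives), at 144 to 246 against 489 to 538 CPM in sum. The 7 hair shaft and inner root sheath markers were all called higher (0 to 7 over the alternatives). The 8 skeletal muscle markers were all lower without overlap (median -2.86, 2 called, 0 to 7 over the alternatives), at 632 to 16609.8 against 43668 to 53479.7 CPM in sum. Of 6 macrophage markers 2 (Csf1r and Mrc1; 0 to 3 over the alternatives) and of 6 fibroblast markers 1 (Dcn; 0 to 5) were called lower. Their part in the member values was not tested.

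HDB 15 mm skin was compared with normal skin in the same way. Junb, Egr2 and Ier2 were higher, 3 of 10 members beside 2.67% of all genes tested called higher, and 0 were lower, beside 2.51% (5.18% in either direction). Egr2 rose by a log2 fold change of 1.22 (SE 0.266, edgeR adjusted p = 0.0312), Junb by 1.16 (SE 0.265, edgeR adjusted p = 0.0338) and Ier2 by 1.03 (SE 0.267, edgeR adjusted p = 0.0470). Egr1 (1.3, SE 0.389, edgeR adjusted p = 0.0675), Klf4 (-0.53, SE 0.151, edgeR adjusted p = 0.0582) and Fos (1.74, SE 0.644, edgeR adjusted p = 0.114) did not pass, although the groups did not overlap for any of them. In all 7 members were higher without overlap, beside 23.8% of all genes, and Klf4 was lower, beside 22.6%. Egr3 was level with normal skin (-0.01, SE 0.337). Markers of other cells moved in this comparison as well, by the fit lower than normal for 8 of 8 skeletal muscle genes (7 without overlap), 6 of 6 endothelial genes (4 without overlap) and 8 of 9 suprabasal genes (7 without overlap, 1 called) and higher for 7 of 7 hair genes (all without overlap). Their part in the member values was not tested. The calls of the members depended on single samples and on the fit. Without HDB 15 mm replicate 1 or 3, or without any 1 of the normal replicates, 0 members were called, and without HDB 15 mm replicate 2 there were 3. Blocking on the replicate number left 0. DESeq2 called 6, and a fit of only the 2 groups called 7. A fit of the 15 mm and normal groups alone called only Egr2. The fold changes themselves moved little, from 1.12 to 1.34 for Egr2, 1.06 to 1.33 for Junb and 0.93 to 1.16 for Ier2 over all 15 alternatives. Counts over all genes moved likewise, from 796 to between 34 and 1340 when 1 sample was left out.

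Further genes of the early response were described from lists drawn up with earlier results known. Of 16 other immediate-early transcription factors tested, 1 was called higher in acellular 15 mm than in normal skin (17.6% of all genes), Fosl2, another AP-1 protein (0.72, SE 0.164, edgeR adjusted p = 0.00963, at 244 ± 37.9 against 148 ± 13.5 CPM). A further 5 were called lower (12.6% of all genes), namely Nr4a1, Klf2, Klf6, Maff and Bhlhe40. Of 15 alternatives Klf2 held in 14, Nr4a1 in 13, Klf6 in 9, Maff in 4 and Bhlhe40 in 3. The counts ran from 0 to 3 higher and from 1 to 5 lower. Nr4a1, an orphan nuclear receptor induced by many stimuli, fell by 2.15 on the log2 scale (SE 0.578, edgeR adjusted p = 0.0174), with 15.6, 36.1 and 20.4 CPM in acellular 15 mm and 152, 72.2 and 96.0 CPM in normal skin, so immediate-early factors did not move in 1 direction in these wounds. In HDB 15 mm skin Bhlhe40, a clock-linked repressor, was the only one of the 16 called against normal skin, beside 5.18% of all genes (-0.84, SE 0.219, edgeR adjusted p = 0.0473), and the call held in 4 of 15 alternatives. Between HDB and acellular 15 mm skin 0 of the 16 were called by edgeR and at most 1 in any alternative. At 10 mm, where no test is given, 14 of the 16 were lower in HDB skin by the fit (median -0.44), beside 51.8% of all genes, and 5 without overlap, beside 6.47%. Without acellular 10 mm replicate 3 there were 12 and 5, with a median of -0.31. Nfil3 had the largest difference among those without overlap (-0.64, 25.7 ± 5.81 against 40.1 ± 4.16 CPM).

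Feedback and effector genes of the response, such as phosphatases and mRNA decay factors, were set beside the members. Of 30 tested, 26 had a lower fitted level in HDB 10 mm skin (median -0.52), beside 51.8% of all genes tested, and 14 were lower without overlap, beside 6.47%. The list was drawn up with this contrast known, so nothing is read from these counts. Without acellular 10 mm replicate 3 these counts were 26 and 15. Dusp1, the phosphatase that switches off MAP kinases, stood at 67.5, 64.4 and 72.5 CPM in HDB 10 mm and at 208, 215 and 336 CPM in acellular 10 mm skin, a log2 fold change of -1.89, given as a description. Its level was 123, 104 and 97.9 CPM in normal skin, so HDB 10 mm skin lay below both. In acellular 15 mm against normal skin 7 of the 30 were called higher (Dusp2, Dusp5, Dusp6, Ier5, Ier5l, Gadd45a and Arc) and 5 lower (Sik1, Rhob, Errfi1, Ccn1 and Ccn2), beside 17.6% and 12.6% of all genes tested. The counts ran from 3 to 8 higher and from 0 to 6 lower over 15 alternatives. Dusp2, a nuclear MAP kinase phosphatase, rose most, by 3.34 (SE 0.660, edgeR adjusted p = 0.00577), with 21.5, 37.6 and 6.80 CPM against 1.67 to 2.67 CPM. Errfi1, an inhibitor of the EGF receptor, fell by 1.54 on the log2 scale (SE 0.407, edgeR adjusted p = 0.0163), a call lost with only the groups compared and without normal replicate 1, which stood at 359 CPM beside 149 and 153 CPM.

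Gadd45a, a growth arrest and DNA damage response protein, was the only one of the 30 called between HDB and acellular 15 mm skin, beside 2.93% of all genes tested. It was higher in HDB skin at 38.3, 34.1 and 46.3 against 24.4, 27.5 and 17.3 CPM, a log2 fold change of 0.78 (SE 0.177, edgeR adjusted p = 0.0435). The call held in 4 of 15 alternatives, was lost with the replicate block and was lost without any 1 of the HDB 15 mm samples. Against normal skin (11.5, 12.5 and 10.9 CPM) the rise in HDB 15 mm skin was 1.77 (SE 0.183, edgeR adjusted p = 0.00189) and was called in all 15 alternatives. Ier5 and Ier5l were also called higher there, each in 7 of 15 alternatives and not with the replicate block, and 0 of the 30 lower, so that 3 of 30 stood beside 2.67% of all genes called higher.

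**Figure D3:**
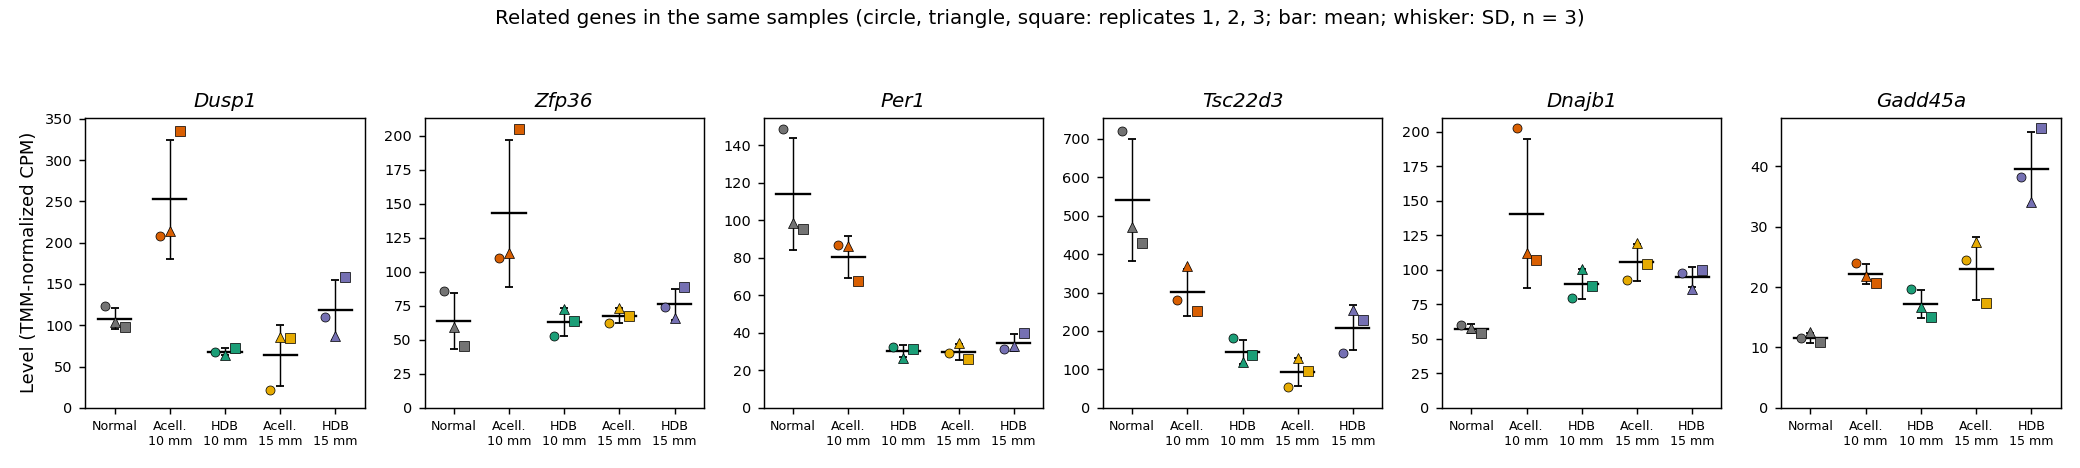
Levels of 6 related genes (TMM-normalized CPM, linear axis from 0) by group, with replicates 1, 2 and 3 as circle, triangle and square, the mean as a bar and the SD as a whisker (n = 3). Dusp1 and Zfp36 are highest in acellular 10 mm skin, Per1 and Tsc22d3 are highest in normal skin and lower in HDB 10 mm than in acellular 10 mm skin, and Gadd45a is highest in HDB 15 mm skin.

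Of 19 upstream kinases and promoter factors, which act ahead of the response, 2 were called lower in HDB than in acellular 15 mm skin, beside 2.35% of all genes tested. They were Egfr, the receptor of EGF (-0.78, edgeR adjusted p = 0.0427), and Elk4, an ETS partner of serum response factor (-1.39, SE 0.279, edgeR adjusted p = 0.0293, at 8.20 ± 3.03 against 21.5 ± 2.18 CPM). Neither was called with the replicate block or without any 1 HDB 15 mm sample, and the calls held in 3 of 15 alternatives for Egfr and 6 for Elk4. Against normal skin, acellular 15 mm skin had 4 of the 19 called higher (Egfr, Rps6ka1, Mrtfa and Creb1) and 2 lower (Mapk9 and Mapk14), beside 17.6% and 12.6% of all genes tested. Over the alternatives 1 to 5 were called higher and 0 to 4 lower, and Mapk9 held in 7 of 15. Egfr rose by 1.07 (SE 0.178, edgeR adjusted p = 0.00358), at 168, 145 and 97.5 against 62.2, 67.8 and 65.2 CPM, and was called in all 15 alternatives. In HDB 15 mm skin 0 of the 19 were called higher and 2 lower, Mapk14 (-0.52, edgeR adjusted p = 0.0352, called in 7 of 15 alternatives) and Mrtfb (4 of 15), beside 2.51% of all genes lower. At 10 mm the median of the 19 was 0.03 and 1 was lower in HDB skin without overlap (beside 6.47% of all genes), Map2k2 (101 ± 14.0 against 119 ± 2.14 CPM). A further list of 8 held dimer partners and corepressors of the members, with Klf5 and Sp1. In it Nab2, which represses Egr proteins and is itself an Egr target, was called higher in acellular 15 mm than in normal skin (1.57, SE 0.265, edgeR adjusted p = 0.00370, at 107, 58.1 and 43.2 against 21, 21.9 and 27.0 CPM). Sp1 was also called higher, and Jdp2, a repressor that dimerizes with Jun, lower (-0.82, SE 0.159, edgeR adjusted p = 0.00547). Between the 15 mm wounds only Klf5, an epidermal relative of Klf4, was called, lower in HDB skin (-1.17, SE 0.285, edgeR adjusted p = 0.0497), and this was lost with the block and in 11 of 15 alternatives in all.

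Immediate-early genes also answer to tissue handling, to the time of day and to glucocorticoids, so genes known for each were set beside them. All 9 of 9 heat shock genes had a lower mean in HDB 10 mm skin by the fit (median -0.25, 1 without overlap, Dnajb1, a co-chaperone, at 89.6 ± 10.6 against 141 ± 54.0 CPM). Their summed level in the acellular 10 mm samples was 6671, 3499 and 4122 CPM. In HDB 10 mm skin it was 3737, 4276 and 3805 CPM, within the acellular range and above acellular replicate 2 in every sample. Of 14 clock genes 11 were lower in HDB 10 mm skin (median -0.48, 2 without overlap). Summed over the 14, the level was 1167, 563 and 579 CPM in acellular and 665, 475 and 564 CPM in HDB 10 mm skin. Acellular replicate 1 stood apart here, whereas replicate 3 was highest for the members. Per1, a core clock gene that glucocorticoids and CREB also induce, stood at 32.5, 26.8 and 31.5 against 87.1, 86.3 and 67.5 CPM and at 149, 98.4 and 95.2 CPM in normal skin. Of 8 glucocorticoid-induced genes 7 were lower in HDB 10 mm skin (median -0.45, 4 without overlap), among them Tsc22d3, a classical glucocorticoid target, at 180.4, 120 and 137 against 279.8, 369 and 253 CPM. Over all genes tested the median was -0.01 and 6.47% were lower without overlap. The part of handling, time of day or glucocorticoids in the member values was not tested.

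Against normal skin the same lists also moved at 15 mm. In acellular 15 mm skin 8 of 14 clock genes were called lower and 2 higher (Arntl and Npas2), beside 12.6% and 17.6% of all genes tested, and in HDB 15 mm skin 7 were called lower and 1 higher (Arntl), beside 2.51% and 2.67%. Over the alternatives 1 to 3 were called higher in acellular 15 mm skin, where Npas2 held in 6 of 15 and was lost with the replicate block, 6 to 9 were called lower in acellular and 2 to 9 in HDB 15 mm skin, and without HDB 15 mm replicate 1 or 3 the calls of Per3, Nr1d2, Dbp, Tef and Hlf were lost there. Dbp, a clock output factor, fell by 3.51 on the log2 scale in acellular 15 mm skin (SE 0.780, edgeR adjusted p = 0.00878). In HDB 15 mm skin it fell by 3.77 (SE 0.791, edgeR adjusted p = 0.0290, called in 10 of 15 alternatives). Arntl, a core clock gene, rose by 1.95 in acellular (SE 0.307, edgeR adjusted p = 0.00332) and by 2.16 in HDB 15 mm skin (SE 0.309, edgeR adjusted p = 0.00698). Both comparisons use the same normal samples. Between HDB and acellular 15 mm skin 0 of the 14 were called by edgeR or in any alternative. Of the 8 glucocorticoid-induced genes 1 was called higher in acellular 15 mm skin, Cdkn1a, a cell cycle inhibitor (0.97, SE 0.259, edgeR adjusted p = 0.0173, called in 10 of 15 alternatives, with overlapping groups), and 2 lower (Tsc22d3 and Klf9), beside 17.6% and 12.6% of all genes, and in HDB 15 mm skin 0 were called higher and 1 lower. Tsc22d3 was lower than normal in both (-2.53, SE 0.342, edgeR adjusted p = 0.00224 in acellular, and -1.38, SE 0.329, edgeR adjusted p = 0.0371 in HDB), of which the HDB call was lost in 8 of 15 alternatives. Heat shock genes were higher than normal in acellular 15 mm skin for 9 of 9 by the fit (median 0.50, 3 without overlap, beside 22.5% of all genes). Of the 9, 3 were called (Hsph1, Dnajb1 and Hsp90aa1, 1 to 4 over the alternatives), beside 17.6% of all genes. In HDB 15 mm skin 9 of 9 were higher by the fit (median 0.68, 7 without overlap, beside 23.8% of all genes), of which 0 were called by edgeR and up to 4 in an alternative. Hsp90aa1 stood at 661 ± 272 against 317 ± 61.0 CPM.

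Cell type markers moved beside the members too. At 10 mm the 6 dermal fibroblast markers were all higher in HDB skin without overlap, beside 4.53% of all genes tested higher without overlap, with a summed level of 8947 to 11811 against 3516 to 5433 CPM. The 5 basal keratinocyte markers were all lower by the fit, at 8109.7 to 13389 against 10692 to 15859.6 CPM, 2 of them without overlap, beside 51.8% and 6.47% of all genes. Endothelial markers (138 to 230.2 against 94.2 to 181 CPM) and adipocyte markers (603 to 1441 against 308 to 649.6 CPM) were higher in HDB skin for all their genes. Macrophage markers stood at 282 to 648 against 149.7 to 946 CPM. Neutrophil markers reached 201 CPM in 1 HDB 10 mm sample and at most 22.9 CPM in acellular 10 mm skin. Their part in the values of the 10 genes was not tested. At 15 mm 6 of 6 fibroblast markers were higher in HDB than in acellular skin by the fit and 0 were called by edgeR, and up to 6 were called in an alternative. The 7 hair shaft and inner root sheath markers were all lower in HDB than in acellular skin by the fit at 10 mm (median -4.81, 0 without overlap) and at 15 mm (median -4.83, 0 called by edgeR and up to 4 in an alternative). Their summed level was 1231, 12.97 and 378 CPM in acellular and 19.5 to 31.3 CPM in HDB 10 mm skin, 16724, 1236 and 23.8 CPM in acellular and 96.1 to 494 CPM in HDB 15 mm skin and 6.04 to 6.39 CPM in normal skin. Within acellular 15 mm skin Egr3 was highest in the same sample, replicate 1, and the part of hair follicles in its value and in those of the other members was not tested.

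The members rose and fell together to different degrees. Over the 15 samples the 45 pairs had Pearson correlations of log2 CPM from 0.149 (Egr2 with Klf4) to 0.966 (Junb with Ier2), with a median of 0.618. After the group means were subtracted the range was -0.083 (Fos with Egr3) to 0.881 (Fosb with Atf3), with a median of 0.516. Acellular 10 mm replicate 3, the highest sample for all 10 members, enters these values. They were not computed without that sample or over all gene pairs. All values of a sample come from 1 library. Against the mean of the other members, Egr1 was closest (0.921) and Fosb (0.901), Ier2 (0.888) and Fos (0.883) followed, while Jun (0.564), Egr3 (0.570) and Klf4 (0.471) were farthest. These are descriptions over 15 samples in 5 groups and carry no test.

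**Figure D4:**
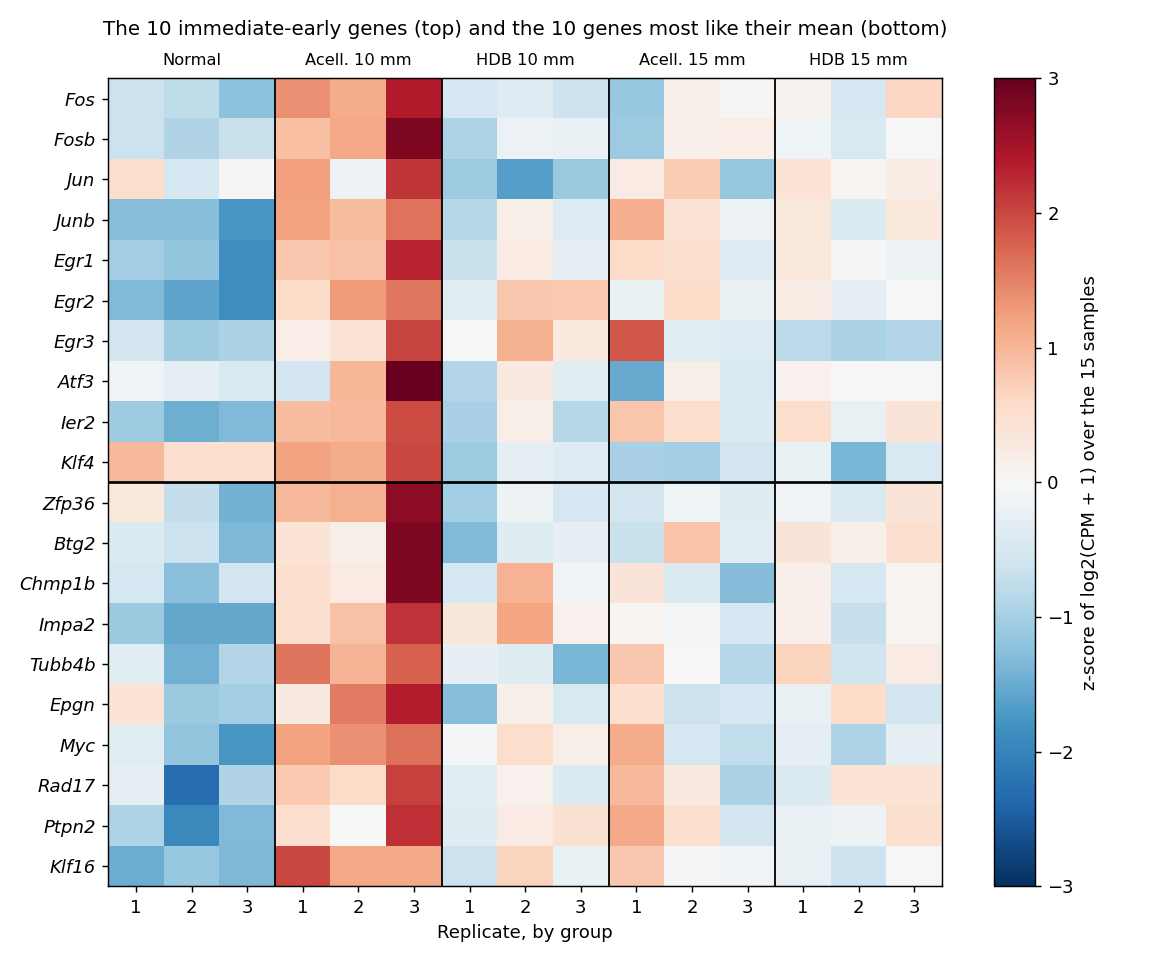
Relative level of the 10 genes (top) and of the 10 genes most like their mean (bottom) in the 15 samples, as z-scores of log2(CPM + 1) within each gene, with red above and blue below the mean of the gene. The column of acellular 10 mm replicate 3 is the reddest in the upper block, normal skin is blue for most members but not for Klf4 and Jun, and Egr3 stands out in acellular 15 mm replicate 1.

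The genes most like the members were found by the correlation of their log2 CPM with the mean z-score of the 10 members over the 15 samples. They were Zfp36 (0.938), Btg2 (0.883), Chmp1b (0.854), Impa2 (0.841), Tubb4b (0.837), Epgn (0.823), Myc (0.808), Rad17 (0.803), Ptpn2 (0.800) and Klf16 (0.790). Zfp36 encodes an mRNA decay factor and Btg2 an antiproliferative protein, both long known as immediate-early genes and both in the list of feedback genes, and Myc was in the list of other immediate-early factors. Zfp36 was measured at 110, 114 and 205 CPM in acellular 10 mm skin and at 52.7 to 88.7 CPM in the other wound and normal samples apart from 1 normal sample at 45.7 CPM. Epgn encodes an EGF receptor ligand and stood at 10.4, 20.7 and 31.0 CPM in acellular 10 mm skin against 4.38, 9.90 and 7.05 CPM in HDB 10 mm skin. Without acellular 10 mm replicates 3 and 2, the samples farthest from the median, the correlations of the 10 genes lay between 0.518 (Epgn) and 0.876 (Klf16), with Zfp36 at 0.807.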

How the data were processed

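Skin RNA of 15 samples (5 groups of 3) was measured. The table deposited by the authors holds expected counts per gene symbol and Entrez identifier, without normalization. The submitters' processing notes name HISAT2 2.0.4, Bowtie2 2.2.5, RSEM 1.2.12 and GRCm38.p6, without saying which made the table. RSEM shares reads between similar transcripts, so counts of related genes are estimates. Counts were rounded. Total counts of 15840551 to 18404188 per sample gave even depth, and with 3 samples per group the precision is set by the spread between samples. Groups were taken from the sample titles, and columns were matched to samples by name.

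In R 4.3.3, edgeR 4.0.16 was run with TMM, filterByExpr (15369 genes), 1 fit of 5 group means, the two-sided quasi-likelihood test, Benjamini-Hochberg adjustment over all genes tested and a threshold of 0.05. SEs are the log2 fold change over the square root of F. Log2 CPM used a prior count of 2. The fit was tested on simulated data. Members and lists were chosen with earlier results of these data known. Named were all members, per list and 15 mm comparison the called gene with the largest rise and fall, at 10 mm the largest difference without overlap, and the 10 genes most like the members. Other genes are given as the composition of a count.

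Alternatives were DESeq2 1.42.0, no filter, a stricter filter (mean of 50 counts), the 2 compared groups alone, a block on the replicate number, removal of a transcript length trend without and with the block, a minimum absolute log2 fold change of 1, and leaving out each replicate. A fit of the 15 mm and normal groups and, for the 15 mm comparisons, leaving out acellular 10 mm replicate 3 were chosen after seeing the data. Same-number samples of the 15 mm groups departed from the group means in the same sense (r = 0.397, 0.167 and 0.183). Values of like size arose elsewhere, such as 0.395 for replicate 1 of the 2 acellular groups, so they do not show a pairing. No source says what a number marks. The main fit used no block, and the block alternatives took the number over all 15 samples. Promoter sequences and gene positions are from RefSeq on GRCm38.p6, which gave a window for 7 of the 10 members. Krt85, Trac and Trdc were not matched and were not used here.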

Additional observations from a re-analysis of the deposited data

How the results depend on the processing

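Between HDB and acellular 15 mm skin, 0 members were called as reported and in every alternative, the minimum fold change included. In acellular 15 mm against normal skin 4 to 6 were called in these, against 5 as reported. The 3 members called in HDB 15 mm against normal skin became 6 by DESeq2, 7 with only the groups compared, 0 with the replicate block without and with the length trend removed, 1 in the fit of the 15 mm and normal groups, and 0 to 3 when a replicate of these groups was left out (4 without acellular 10 mm replicate 3). The cause was not tested. Directions that turned belonged to fold changes that were not called, and at 10 mm, without a test, to Egr3 (-0.29, and 0.10 without acellular 10 mm replicate 3). Between the 15 mm wounds, Fosb was 0.062 with the replicate block and 0.071 with the length trend also removed. In acellular 15 mm against normal skin, Jun was 0.012 with the replicate block, 0.0087 with the length trend removed, 0.023 with both, 0.026 with only the groups compared and 0.0049 in the fit of the 15 mm and normal groups. Leaving out a replicate between the 15 mm wounds gave -0.65 to 0.16 for Fosb, -0.28 to 0.10 for Ier2, -0.17 to 0.15 for Egr2, -0.10 to 0.21 for Jun and -0.013 to 0.22 for Klf4. Against normal skin it gave -0.67 to 0.19 for Atf3 and -0.14 to 0.16 for Jun in acellular 15 mm, and -0.064 to 0.087 for Egr3 and -0.017 to 0.17 for Jun in HDB 15 mm skin. The median member difference at 10 mm stayed between -1.46 and -0.83. Over all genes, the 450 calls between the 15 mm wounds became 2174 by DESeq2, 179 with the block, 199 with no filter, 695 with the stricter filter, 0 with the length trend removed or only the groups compared, and 0 to 2322 without a replicate. The 4642 calls in acellular 15 mm against normal skin became 972 with only the groups compared, and the 796 in HDB 15 mm skin became 2864 by DESeq2, 3401 with only the groups compared and 237 with the block. All groups use the same replicate numbers, and no source says what a number marks. With 3 samples per group, the spread of Fos, Fosb and Atf3 limits what could be detected.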
